A study of Mus musculus with 30 samples.

Results

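The immunoglobulin loci are the 3 stretches of the mouse genome from which B cells assemble their antibody genes. They were taken here as the heavy chain window (Igh, chromosome 12 from 113.2 to 116.1 Mb), the kappa window (Igk, chromosome 6 from 67.5 to 70.8 Mb) and the lambda window (Igl, chromosome 16 from 18.9 to 19.3 Mb), all on mm10. Every peak lying in a window was a member, and 935 of the 368503 peaks of the 15 lists did so, or 0.254%. Of these, 928 were peaks of histone acetylation and 7 were peaks of CBP, the acetyltransferase encoded by Crebbp.

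The series compares C57BL/6 mice that lack Crebbp with wild-type mice by chromatin immunoprecipitation and sequencing (ChIP-seq), which maps where a histone mark or a protein sits on DNA. Crebbp-null lymphoproliferative disease (LPD) was Crebbp-/- (CBPfl/fl:Mx-Cre+), taken as bulk spleen with no sorting, and each acetylation mark (H3K27ac, H3K18ac, H3K56ac) was mapped in it with 2 lists. Wild-type B cells were CBPfl/fl:Mx-Cre-, sorted from spleen by the B cell surface marker B220, and had 2 lists per mark and the single CBP list. H3K27ac was also mapped in lymphoid progenitors, the Lin- IL7ra+ cells of bone marrow, with 1 list from Crebbp-null mice and 1 from wild-type mice. Both genotypes carry the floxed alleles, and they differ in Mx-Cre, an interferon-inducible Cre that is active in blood cells and other tissues, so deletion was not limited to B cells. The labels used here give no ages. Nor do they tell if a group's lists stem from separate animals, so errors and p-values measure only the spread between these lists, which may be technical. LPD and B cells differed in genotype, in disease and in sorting at once, and these cannot be told apart.

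A developing B cell joins a V, a D and a J segment of the heavy chain locus, and a V and a J segment of a light chain locus, by deleting or inverting the DNA between them. The joined V segment then stands in front of a constant gene, whose switch in the heavy chain locus gives IgM, IgD, IgG, IgE or IgA. Transcription depends on a promoter at each V segment and on enhancers downstream of the constant genes. In the heavy chain and kappa loci it also depends on an enhancer between the J segments and the first constant gene. A stretch can lack peaks because it lacks acetylation or because it was deleted on joining, and peak lists cannot tell these apart. In bulk samples, fewer cells of a type and less mark per cell cannot be told apart either.

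The RefSeq promoter table (GRCm38.p6, the same assembly as mm10) held none of the V, D, J or constant segments, and 18 promoters of other genes in the windows. The 4 below are shown because the peaks discussed further on begin, end or are missing there. Each runs 5′ to 3′ on the gene's strand from 250 bases before the start to 50 after it, and capitals mark the bases inside the H3K27ac peaks of both wild-type B cell lists. Gm46961 and Gm35545 are non-coding genes at which B cells had peaks that LPD lacked. LOC108169192 is a non-coding gene among the kappa V segments beside a region that only LPD had. Rpia, a gene of the pentose phosphate pathway at the edge of the kappa window, had peaks in both.
Gm46961, chr6:70718827-70719126, minus strand: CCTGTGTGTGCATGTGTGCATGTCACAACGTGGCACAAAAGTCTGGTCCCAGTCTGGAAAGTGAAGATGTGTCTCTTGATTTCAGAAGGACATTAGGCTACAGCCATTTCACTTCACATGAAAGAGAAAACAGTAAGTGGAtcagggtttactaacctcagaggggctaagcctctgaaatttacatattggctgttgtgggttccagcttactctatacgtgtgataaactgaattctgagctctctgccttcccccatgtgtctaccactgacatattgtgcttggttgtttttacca
Gm35545, chr16:19218252-19218551, plus strand: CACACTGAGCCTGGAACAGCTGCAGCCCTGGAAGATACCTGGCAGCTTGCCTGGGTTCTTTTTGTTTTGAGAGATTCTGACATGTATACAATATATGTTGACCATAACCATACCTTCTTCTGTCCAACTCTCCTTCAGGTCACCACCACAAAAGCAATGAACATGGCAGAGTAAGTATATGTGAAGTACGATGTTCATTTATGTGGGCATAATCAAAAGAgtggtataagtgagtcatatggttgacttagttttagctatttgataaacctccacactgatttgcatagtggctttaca
LOC108169192, chr6:68880650-68880949, minus strand: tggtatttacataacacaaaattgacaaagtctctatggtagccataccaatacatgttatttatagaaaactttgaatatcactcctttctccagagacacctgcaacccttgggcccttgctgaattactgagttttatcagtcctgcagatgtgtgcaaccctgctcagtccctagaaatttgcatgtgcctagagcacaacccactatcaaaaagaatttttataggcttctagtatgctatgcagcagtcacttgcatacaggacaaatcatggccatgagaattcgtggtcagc
Rpia, chr6:70792126-70792425, minus strand: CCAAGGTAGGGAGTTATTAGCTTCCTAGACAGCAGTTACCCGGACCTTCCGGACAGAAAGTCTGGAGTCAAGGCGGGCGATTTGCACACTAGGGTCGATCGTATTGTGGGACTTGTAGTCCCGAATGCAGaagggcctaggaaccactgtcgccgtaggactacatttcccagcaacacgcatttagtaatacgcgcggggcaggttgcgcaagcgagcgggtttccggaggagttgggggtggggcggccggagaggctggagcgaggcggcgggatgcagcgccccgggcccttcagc
The octamer ATGCAAAT, the motif that Oct1 and Oct2 bind in V segment promoters, was searched on both strands. Its reverse complement, ATTTGCAT, stands in the Gm35545 and LOC108169192 promoters, and neither letter string is in the Gm46961 and Rpia promoters as printed. Over all 32851 promoters of the table, 570 held the octamer, or 1.74%.

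The lists held 13125 to 39529 acetylation peaks each, and 1000 in the CBP list. They give positions only, so read depth is unknown, and the covered length of a list stands in its place. LPD lists were not of equal length: H3K27ac covered 26.2 and 18.2 Mb of the genome in the LPD lists, against 27.1 and 26.4 Mb in the B cell lists. H3K18ac covered 29.5 and 21.4 Mb in LPD and 13.3 and 14.0 Mb in B cells, and H3K56ac 17.0 and 18.3 Mb in LPD and 10.6 and 9.44 Mb in B cells. On the log2 scale the genome therefore differed by -0.29, 0.88 and 0.82 between LPD and B cells before any locus was considered. Of 8 B cell marker genes, 8 and 7 had H3K27ac peaks in the LPD lists and 8 in each B cell list. Of 6 T and NK cell genes none had an H3K27ac or H3K18ac peak in LPD, and 1, Cd4, had H3K56ac peaks in both LPD lists. Of 6 myeloid genes at most 1 had a peak in any LPD list, and of 4 erythroid genes 2 had H3K27ac peaks in both LPD lists, against 1 in both B cell lists. Of 4 plasma cell genes, 2 and 1 had H3K27ac peaks in the LPD lists, over 2.46 and 1.69 kb in sum, and 2 and 3 in the B cell lists, over 2.15 and 2.34 kb. For H3K18ac the counts were 2 and 1 in LPD and 1 and 2 in B cells, and for H3K56ac 2 and 3 in LPD and 2 and 1 in B cells. Jchain, a marker of antibody-secreting cells, had no peak in any list. Xbp1 had peaks of all 3 marks in LPD and B cells, with 2.05 and 1.69 kb of H3K27ac in LPD and 1.52 and 1.45 kb in B cells. Sdc1 had H3K27ac in B cell list 2 only, and H3K56ac in LPD list 2 and B cell list 1. Prdm1 had a gained H3K56ac region (0.275 and 0.481 kb in LPD, none in B cells) and a lost H3K27ac region. The part of plasma cells in the results below was not tested. In progenitors, 4 of 6 progenitor genes had a peak in the Crebbp-null list and 4 in the wild-type list, Il7r among them, while Rag1 and Kit had none.

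How acetylation of each immunoglobulin locus differs between Crebbp-null LPD and wild-type B cells was asked first for the whole windows. The heavy chain locus was more widely acetylated in LPD for each of the 3 marks. The light chain loci were more widely acetylated in LPD for H3K18ac and H3K56ac, while for H3K27ac their LPD lists lay on both sides of B cells.

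At Igh, H3K27ac peaks covered 48.9 and 39.6 kb in LPD, against 28.6 and 28.3 kb in B cells, a log2 ratio of 0.63 ± 0.15 (SE, n = 2 each) on log2(kb + 0.1). The same length was 44.0 and 37.2 kb in LPD and 10.6 and 12.6 kb in B cells for H3K18ac, a log2 ratio of 1.80 ± 0.17. For H3K56ac it was 30.7 and 32.1 kb in LPD and 8.29 and 6.28 kb in B cells, a log2 ratio of 2.11 ± 0.20. Both LPD lists lay above both B cell lists each time, and the exact two-sided permutation test gave p = 0.333, the smallest that 2 lists against 2 allow.

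At Igk, H3K27ac covered 42.5 and 25.1 kb in LPD and 32.6 and 33.0 kb in B cells, a log2 ratio of -0.003 ± 0.38 (exact permutation p = 1). H3K18ac covered 33.8 and 21.7 kb in LPD and 8.30 and 9.02 kb in B cells (log2 ratio 1.63 ± 0.32), and H3K56ac 15.7 and 17.3 kb in LPD and 5.87 and 4.61 kb in B cells (1.65 ± 0.19). At Igl, H3K27ac covered 41.7 and 26.6 kb in LPD and 38.3 and 38.4 kb in B cells, a log2 ratio of -0.20 ± 0.32 (exact permutation p = 1). H3K18ac covered 38.7 and 25.1 kb in LPD and 9.87 and 10.4 kb in B cells there (1.61 ± 0.32), and H3K56ac 22.3 and 23.3 kb in LPD and 3.23 and 3.56 kb in B cells (2.71 ± 0.07). The 4 light chain values of H3K18ac and H3K56ac had lists that did not overlap between LPD and B cells, each at an exact permutation p of 0.333. Counted only from the outermost immunoglobulin gene to the other, which leaves out the sequence downstream of Igkc, Igk H3K27ac had a log2 ratio of 0.87 with lists that did not overlap.

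**Figure D1:**
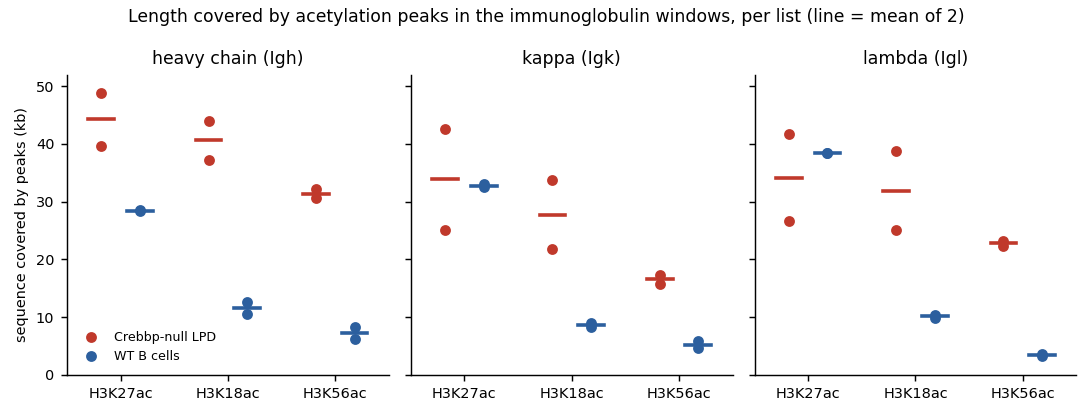
Sequence covered by acetylation peaks (kb, vertical axis) in the heavy chain, kappa and lambda windows, by mark (horizontal axis). Points are single lists, red for Crebbp-null LPD and blue for wild-type B cells, and lines are means of 2 lists. LPD lies above B cells in each panel for H3K18ac and H3K56ac, and for H3K27ac in the heavy chain panel only (48.9 and 39.6 kb in LPD against 28.6 and 28.3 kb in B cells).

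Set against the whole genome in 10 kb bins with a peak in any list of the mark, 20 of the 49 immunoglobulin bins of H3K27ac were higher in both LPD lists than in both B cell lists, against 23.4% of all bins, and 18 were lower, against 40.3%. For H3K18ac, 30 of 48 bins were higher (51.4% of all bins) and 1 was lower (11.7%). For H3K56ac, 25 of 40 bins were higher (58.5%) and 1 was lower (10.4%). By locus, the bins higher in H3K27ac were 9 of 15 at Igh, 7 of 18 at Igk and 4 of 16 at Igl. For H3K18ac and H3K56ac the share of higher bins, 62.5% for each, stood near that of the genome, so the direction alone is not a result about the immunoglobulin loci.

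Peaks of the 4 lists of a mark were merged into regions, and a region was called gained when it held peaks of both LPD lists and of no B cell list, lost the other way round, and kept with peaks of all 4. For H3K27ac, 14 of 116 immunoglobulin regions were gained, against 11.4% of regions genome-wide, 14 were lost, against 15.9%, and 41 were kept. The 14 gained regions were 6 at Igh, 7 at Igk and 1 at Igl, and the 14 lost ones 1, 4 and 9. For H3K18ac, 25 of 112 regions were gained, against 25% of all, and 1 was lost, against 3.88%. For H3K56ac, 36 of 87 were gained, against 23.7% of all, and none was lost, against 4.21%. The 14 H3K27ac gains were 450 to 5106 bp wide, with a median of 964 bp, and the 14 losses 300 to 834 bp, with a median of 443 bp. Of the gained regions, 5 had a peak in each of the 6 LPD lists of the 3 marks, and all 14 had none in the 6 B cell lists. Of the lost regions, 12 had no peak in any of the 6 LPD lists, and none had a peak in all 6 B cell lists. In these counts the 4 H3K27ac lists were fixed by the call, so only the H3K18ac and H3K56ac lists add to it. The same counts over all regions of the genome were not made. With lists cut to equal length by keeping the widest peaks, which drops narrow ones first, 17 H3K27ac regions were gained and none was lost. Without LPD list 1, 22 were gained, and without LPD list 2, 40, since a call then needs a peak in 1 LPD list only. Without B cell list 1, 23 were lost.

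The heavy chain locus was described by its parts, from the far side of the constant genes towards the V segments. Downstream of Igha lies the 3′ regulatory region, a group of enhancers that drives the locus in mature B cells and plasma cells. In the 42.0 kb between the neighbouring gene and Igha, H3K27ac covered 21.6 and 19.1 kb in LPD and 19.6 and 19.5 kb in B cells, lists that overlapped. H3K18ac covered 20.7 and 19.5 kb there in LPD, against 5.75 and 7.14 kb in B cells, and H3K56ac 14.0 and 14.5 kb in LPD, against 3.65 and 2.46 kb in B cells. The enhancer region was thus marked by H3K27ac over about the same length in both, and by the other two marks over a longer stretch in LPD. It held 4 regions gained in H3K18ac and 6 in H3K56ac, and none gained or lost in H3K27ac.

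Of the 8 heavy chain constant genes, Ighe, Ighg2c, Ighg2b and Ighg1 had no peak inside the gene in any of the 15 lists. Igha, the IgA gene nearest to the enhancers, carried 1.63 and 1.19 kb of H3K27ac in LPD and 1.14 and 1.19 kb in B cells. Its H3K18ac was 1.59 and 1.34 kb in LPD and 0.384 and 0.264 kb in B cells, and its H3K56ac 1.12 and 1.12 kb in LPD and 0.359 and 0.247 kb in B cells. Ighd, the IgD gene, was covered in LPD list 1 of H3K27ac alone, over 0.434 kb.

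Ighg3, the IgG3 gene (chromosome 12, 113357442 to 113361232), had peaks in LPD and none in any B cell or progenitor list. H3K27ac covered 1.61 and 0.720 kb of the gene in the LPD lists, and H3K56ac 0.375 and 1.05 kb. H3K18ac covered 1.15 kb in LPD list 1 and none in list 2. The interval between Ighg3 and Ighd, which on the Ighg3 side holds the switch region of that gene and the start of its germline transcript, had the widest gained region of the immunoglobulin loci. It spanned 113362054 to 113367159 on chromosome 12, 821 bp beyond Ighg3, and H3K27ac peaks covered 5106 and 5032 bp of it in the LPD lists, against 0 and 0 bp in B cells. An H3K18ac region from 113362069 to 113366553 and an H3K56ac region from 113362147 to 113366506 were gained within the same stretch. Over the whole interval, H3K27ac covered 5.63 and 5.52 kb in LPD, H3K18ac 5.42 and 4.62 kb and H3K56ac 5.08 and 5.01 kb. B cells and progenitors had no peak of any mark in it.

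Ighm, the IgM gene (113418826 to 113422730), carried 3.81 and 2.63 kb of H3K27ac in LPD and 0.184 and 0.456 kb in B cells. H3K56ac covered 1.62 and 1.79 kb of it in LPD, and H3K18ac 2.66 and 0.251 kb, against none of either mark in B cells. H3K27ac of the B cell lists lay at different places of the gene, from 113422547 in list 1 and from 113419191 to 113419646 in list 2.

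The interval between Ighm and the J segments holds the intronic enhancer (Eμ), which is active from early B cell stages on. H3K27ac covered 4.96 and 4.78 kb of its 5.78 kb in LPD and 4.66 and 4.50 kb in B cells. H3K18ac covered 4.93 and 4.69 kb in LPD, against 2.97 and 3.25 kb in B cells, and H3K56ac 4.64 and 4.83 kb in LPD, against 3.01 and 2.86 kb in B cells. Each mark had both LPD lists above both B cell lists, with the smallest gap in kb for H3K27ac. Over the whole genome, LPD lists were longer for H3K18ac and H3K56ac (log2 ratios 0.88 and 0.82) and shorter for H3K27ac (-0.29). The lengths of this interval were not adjusted for that, so the order of the marks is not a result about the enhancer.

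Across the 4 J segments the peaks reached further towards the D segments in LPD. The last covered base lay 101 and 24 bp past the end of Ighj1 in the LPD lists of H3K27ac, against 227 and 185 bp short of it in the B cell lists. For H3K18ac it lay 74 and 25 bp past Ighj1 in LPD, and 603 and 698 bp short of it in B cells. For H3K56ac it lay 17 bp short and 22 bp past in LPD, and 914 and 1147 bp short in B cells. In progenitors it lay 261 bp short in the Crebbp-null list and 364 bp short in the wild-type list, as in B cells. Just beyond, a region over Ighd4-1, the D segment nearest to the J segments (113430528 onward), was gained in all 3 marks. It spanned 113430428 to 113431938, and H3K27ac covered 1511 and 1239 bp of it in LPD, against 0 and 0 bp in B cells. Each of the 6 LPD lists had a peak on Ighd4-1 itself, and none of the 6 B cell or 2 progenitor lists had one. Further into the D segments, Ighd1-1 had H3K27ac within 1 kb in both groups, at 0.953 and 0.615 kb in LPD and 0.365 and 0.2 kb in B cells.

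**Figure D2:**
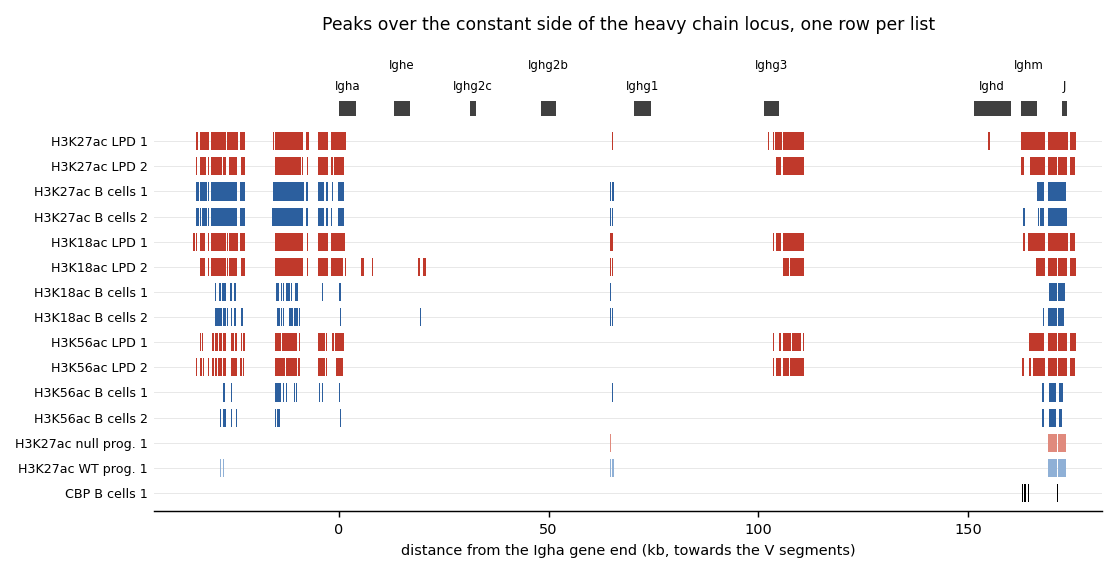
Peaks over the heavy chain constant genes, with 1 row per list and distance from Igha (kb) on the horizontal axis, towards the V segments. Bars are peaks (red, Crebbp-null LPD; blue, wild-type B cells; pale red and pale blue, progenitors; black, CBP) and grey boxes are constant genes and the J segments. The block of about 5 kb beyond Ighg3 appears in all 6 LPD lists and no other, and the H3K27ac blocks left of Igha are shared by LPD and B cells.

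Nearly the whole of the V segments was free of peaks. Of 349 annotated V segments of the 3 loci, 123 of them pseudogenes, 8 had a peak within 1 kb in any of the 15 lists: 2 of 183 at Igh, 4 of 162 at Igk and 2 of 3 at Igl. The V parts of Igh had 3.28 and 1.97 kb of H3K27ac in LPD and none in B cells. Those of Igk had 11.99 and 3.18 kb in LPD, against 0.307 and 0.5 kb in B cells.

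Ighv12-3 (chromosome 12, 114366526 to 114366819) was the V segment with a peak in all 6 LPD lists and in no B cell or progenitor list. H3K27ac covered 0.809 and 0.754 kb within 1 kb of it in LPD, H3K18ac 0.726 and 0.650 kb, while H3K56ac covered 0.530 and 0.574 kb. The region spanned 114366425 to 114367233, across the segment and to its side of higher coordinates, and the 6 LPD peaks began between 114366425 and 114366540. With lists cut to equal length, 3 of the 6 LPD lists still had a peak there, an alternative chosen after seeing the data. On the same side, from 114379517 to 114380618, H3K27ac covered 1079 and 926 bp in LPD and none in B cells, and this stretch too had a peak in all 6 LPD lists. A further one at 114381056 to 114381765 had 710 and 291 bp of H3K27ac in LPD and a peak in 5 LPD lists. Neither overlapped an annotated gene, and the nearest segment was Ighv6-3, 11093 bp from the first and 9946 bp from the second. Ighv15-2 was the only other heavy chain V segment with a peak, in 1 LPD list of H3K18ac.

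Of the kappa V segments, Igkv4-91 (chromosome 6, 68768555 to 68769103) had a peak in 5 of 6 LPD lists and in no B cell or progenitor list. H3K27ac covered 0.971 and 0.333 kb within 1 kb of it in LPD, H3K18ac 0.824 and 0.254 kb, and H3K56ac 0.271 kb in list 1 and none in list 2. With lists cut to equal length, and likewise with peaks of at least 500 bp, 2 LPD lists had a peak there. Igkv12-89 (68834846 to 68835307) had peaks in 3 LPD lists, with 0.961 and 0.293 kb of H3K27ac. Beside it, the region from 68828704 to 68831733 was gained in all 3 marks, the only kappa region of which this was true. H3K27ac covered 3030 and 1573 bp of it in LPD, H3K18ac 2883 and 942 bp, and H3K56ac 224 and 818 bp. A region at 68879517 to 68880482, within LOC108169192, had 966 and 710 bp of H3K27ac in LPD and none in B cells, and ended short of that gene's promoter shown above. Igkv19-93 and Igkv12-46 each had a peak in a single B cell list. With the kappa V segments cut into 3 stretches of equal length, all LPD peaks lay in the middle one, and the one farthest from the J segments had no peak in any list.

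Heavy chains of VH12 with kappa chains of Vκ4-91, and of VH11 with Vκ14-126, are the known pairs by which mouse B-1 cells bind phosphatidylcholine. Ighv12-3 and Igkv4-91 came from the peak lists by the rule, and their partners were looked up after those values were seen. Ighv11-2 and Igkv14-126 had no peak within 1 kb in any of the 15 lists. Peaks do not show which segment was joined or whether the 2 chains stand in the same cell, and the number of cells or clones behind an LPD list is not given.

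**Figure D3:**
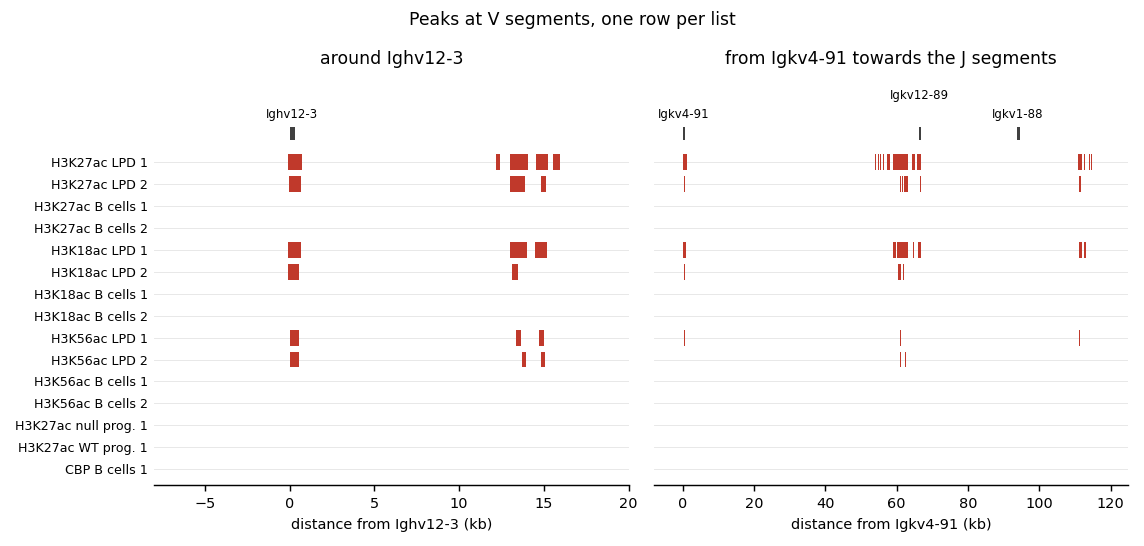
Peaks around Ighv12-3 (left) and from Igkv4-91 towards the kappa J segments (right), with 1 row per list and distance from the segment (kb) on the horizontal axis. Red bars are peaks of Crebbp-null LPD, and grey boxes are V segments. The rows of wild-type B cells, progenitors and CBP are empty in both panels.

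At the kappa constant side the pattern of the marks differed from part to part. Igkc, the kappa constant gene (70726435 to 70726754), was covered over its full 0.320 kb by H3K27ac in LPD and in B cells. H3K18ac and H3K56ac also covered it fully in both LPD lists, and not at all in B cells. The interval between the J segments and Igkc, which holds the intronic kappa enhancer, was covered over its full 2.51 kb by H3K27ac in LPD and B cells. H3K18ac and H3K56ac covered the full interval in LPD as well, against 2.18 and 2.19 kb of H3K18ac and 1.89 and 1.77 kb of H3K56ac in B cells.

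The kappa J segments were the only one of the 54 parts with LPD below B cells in all 3 marks, while 13 parts had LPD above in all 3. Over the whole genome the H3K18ac and H3K56ac lists were also longer in LPD (log2 ratios 0.88 and 0.82). No genome-wide share was counted for such parts, so the count of parts above is not a result about these loci. H3K27ac covered 1.10 and 1.03 kb of the 1.36 kb in LPD, against 1.27 and 1.36 kb in B cells. H3K18ac covered 1.09 and 1.04 kb in LPD and 1.30 and 1.36 kb in B cells, and H3K56ac 1.02 and 0.962 kb in LPD and 1.20 and 1.09 kb in B cells. The difference lay at the side of the V segments. Peaks began 260 and 336 bp after the start of Igkj1 in the LPD lists of H3K27ac, against 92 bp after and 67 bp before it in B cells. For H3K18ac they began 272 and 326 bp after it in LPD, against 59 bp after and 171 bp before it in B cells. For H3K56ac they began 341 and 400 bp after it in LPD and 160 and 269 bp after it in B cells. Igkj1 itself, 70722562 to 70722599, thus lay outside the peaks of all 6 LPD lists, and of 4 of the 6 B cell lists. The 2 that covered it were list 2 of H3K27ac and of H3K18ac. The peaks of 5 LPD lists began shortly before Igkj2, and that of H3K56ac LPD list 2 began 46 bp after its start.

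The gap between the V and the J segments, known for elements that hold back recombination with nearby V segments, had no peak of any mark in LPD. B cells had 1.22 and 1.18 kb of H3K27ac there, 0.603 and 0.533 kb of H3K18ac and 0.258 and 0 kb of H3K56ac. The lost region at 70709542 to 70710313 had no peak in LPD, against 770 and 764 bp of H3K27ac in B cells and a peak in 5 of 6 B cell lists, and it held the single H3K18ac loss of the 3 loci. The lost region at 70718895 to 70719344, at the Gm46961 promoter shown above, had no peak in LPD, against 450 and 350 bp of H3K27ac in B cells. It also had H3K27ac in progenitors, 276 bp in the Crebbp-null list and 358 bp in the wild-type list. These stretches lie where joining of a V to a J segment removes DNA, so absent sequence and absent acetylation cannot be told apart.

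Downstream of Igkc, where the 3′ kappa enhancers lie, H3K27ac was shorter in LPD and the other marks were longer. In the flank up to Gm30211, H3K27ac covered 1.84 and 0.989 kb in LPD and 1.98 and 2.11 kb in B cells. Along Gm30211, a non-coding gene, it covered 15.8 and 10.6 kb in LPD and 16.1 and 15.97 kb in B cells, and from there to Rpia 5.54 and 3.82 kb in LPD and 7.07 and 7.01 kb in B cells. H3K18ac covered 13.4 and 10.4 kb along Gm30211 in LPD, against 3.36 and 2.99 kb in B cells, and H3K56ac 5.49 and 7.29 kb in LPD, against 1.502 and 1.05 kb in B cells. For H3K27ac along Gm30211, LPD list 1 lay just below B cells and list 2, the shorter list, well below them. As a share of each list it was 0.0602 and 0.0582% in LPD and 0.0593 and 0.0605% in B cells, which overlapped. The whole lists differed in the same directions, with log2 ratios of -0.29 for H3K27ac, 0.88 for H3K18ac and 0.82 for H3K56ac. The region from 70749709 to 70752561 at the end of Gm30211 was gained in H3K18ac (2853 and 2424 bp in LPD), and one over the same stretch was gained in H3K56ac (2196 and 2693 bp).

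**Figure D4:**
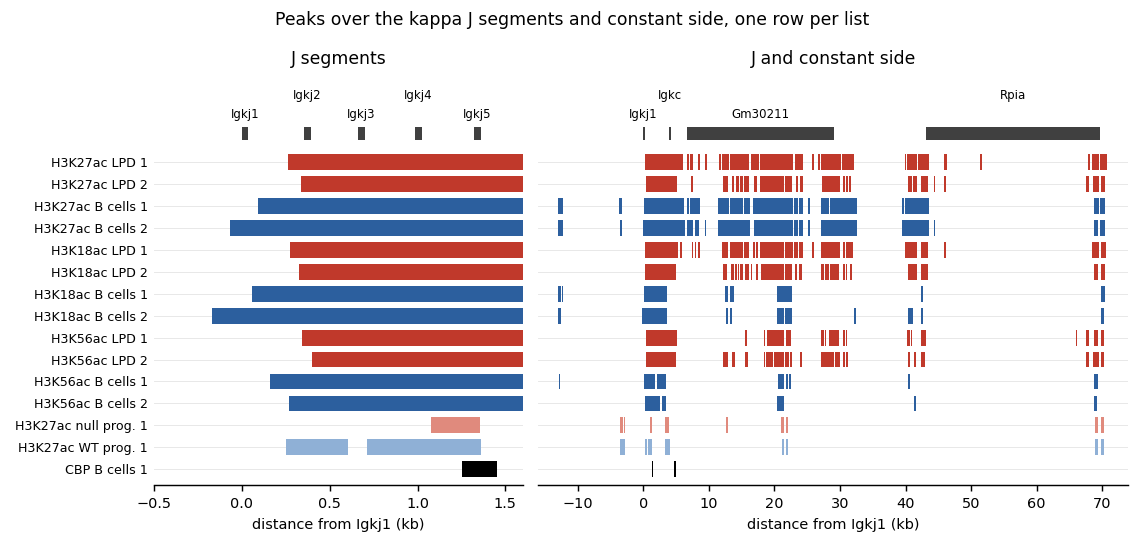
Peaks over the kappa J segments (left) and from the V-J gap past Igkc to Rpia (right), with 1 row per list and distance from Igkj1 (kb) on the horizontal axis. Bars are peaks, coloured by group, and grey boxes are genes. LPD peaks begin to the right of B cell peaks within each mark, and the bars left of Igkj1 belong to B cells and progenitors.

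The lambda locus has 2 clusters of constant genes, one with Iglc1 and Iglc3 and the other with Iglc4 and Iglc2. Iglc1 (chromosome 16, 19061752 to 19062071) was covered over its full 0.320 kb by H3K27ac in LPD and B cells, and by H3K18ac and H3K56ac in LPD only, in each of its lists. From Iglc1 to Iglj1, H3K56ac covered the full 1.15 kb in LPD, against none in B cells, and H3K18ac the full interval in LPD, against 0.397 and 0.372 kb in B cells. An H3K56ac region gained over this cluster, from 19059934 to 19063815, had 3646 and 3816 bp in LPD. Iglc4 had no peak in any list, and Iglc3 and Iglc2 had H3K27ac and H3K18ac peaks inside the gene in LPD list 1 only, up to 0.126 kb. Between Iglj4 and Iglc2, H3K27ac covered 1.85 and 1.24 kb in LPD and 0.598 and 0.243 kb in B cells, and H3K18ac 1.38 and 1.02 kb in LPD and none in B cells. Away from the J and constant segments, 3 lambda parts had less H3K27ac in both LPD lists than in both B cell lists. It covered 4.36 and 2.72 kb of the 3′ flank of Iglc1 in LPD, against 5.23 and 5.81 kb in B cells, and 3.36 and 1.31 kb of the V side of Iglj3 in LPD, against 4.13 and 4.11 kb in B cells. Beyond that flank, at the outer constant side, it covered 6.41 and 2.24 kb in LPD, against 7.38 and 8.11 kb in B cells. H3K18ac was longer in LPD in each of these 3 parts, at 4.83 and 3.48 kb in LPD and 1.73 and 2.33 kb in B cells for the flank.

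The V side of Iglj2, with Iglv3 and Iglv2, held the largest H3K56ac difference of the lambda parts. H3K56ac covered 10.2 and 10.3 kb there in LPD, against 0.478 and 0 kb in B cells, and H3K18ac 14.1 and 9.34 kb in LPD, against 1.73 and 1.62 kb in B cells. H3K27ac covered 15.4 and 11.2 kb in LPD and 11.6 and 10.4 kb in B cells, lists that overlapped. Iglv3 (19241208 to 19241679) had a peak within 1 kb in all 6 LPD lists and in the 2 B cell lists of H3K27ac, with 2.34 and 1.51 kb of H3K27ac in LPD and 1.69 and 1.66 kb in B cells. The gained H3K18ac region over it, 19237337 to 19242355, had 5019 and 2880 bp in LPD and none in B cells. Iglv1 had a peak in 3 LPD lists, and the nearby region at 19083614 to 19084442 was the single lambda gain of H3K27ac, with 829 and 299 bp in LPD. Iglv2 had no peak within 1 kb in any list.

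The 9 lambda regions that lost H3K27ac were narrow, with 200 to 778 bp in each B cell list, and none overlapped a V, J or constant segment. The widest, at 19148073 to 19148906, had none in LPD and 778 and 622 bp in B cells. The one at the Gm35545 promoter shown above, 19218011 to 19218516, had none in LPD and 506 and 348 bp in B cells. Over the whole of Gm35545 and 1 kb around it, H3K27ac covered 13.2 and 10.3 kb in LPD and 9.13 and 7.97 kb in B cells, so the gene as a whole had more in LPD.

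**Figure D5:**
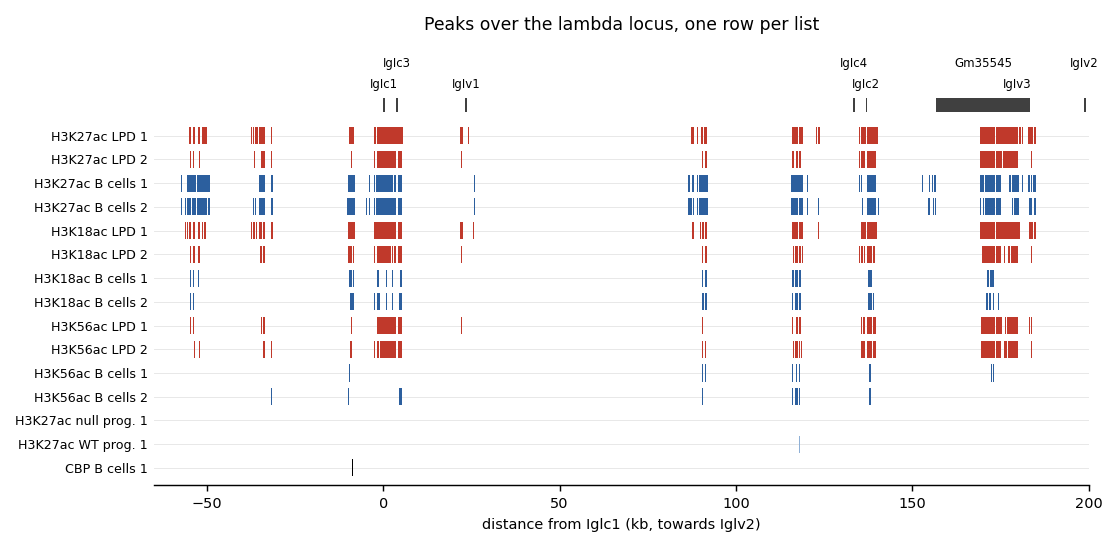
Peaks over the lambda locus, with 1 row per list and distance from Iglc1 (kb) on the horizontal axis, towards Iglv2. Bars are peaks, coloured by group, and grey boxes are genes. The H3K56ac blocks at Iglc1 and around Iglv3 appear in both LPD lists and are missing or short in B cells.

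Whether loss of Crebbp went with acetylation of these loci before disease was asked in progenitors, with 1 list per genotype and no replicate check. H3K27ac covered less of the 3 loci than in LPD or B cells, lay at Igh and Igk in both genotypes, and was nearly absent from Igl. The progenitor lists were short throughout, at 6.32 Mb of the genome in the null and 9.43 Mb in wild type. As a share of the list, Igh was at 0.0718% in the null and 0.0595% in wild type, against at least 0.105% in the H3K27ac lists of LPD and B cells. Igk was at 0.0566% in the null and 0.0486% in wild type, against at least 0.12%. Peaks covered 8.12 kb of the 3 windows in the Crebbp-null list and 10.5 kb in the wild-type list, a log2 ratio of -0.36, against -0.58 for the whole lists. At Igh they covered 4.54 kb in the null and 5.61 kb in wild type, at Igk 3.58 kb in the null and 4.58 kb in wild type, and at Igl 0 kb in the null and 0.269 kb in wild type. Taken as a share of each list, the 3 loci were higher in the null, at a log2 ratio of 0.21, so the direction depends on the length of the lists. Of 18 merged regions 1 was in the null list alone, against 2.87% of all regions, 5 in the wild-type list alone, against 31% of all, and 12 in both.

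The heavy chain intronic enhancer interval was the most covered part in progenitors, at 3.05 kb in the null and 2.93 kb in wild type. The kappa J segments had 0.280 kb in the null and 1.01 kb in wild type, where the wild-type list alone had a peak over Igkj2. Of the 14 H3K27ac regions gained in LPD none had a peak in either progenitor list, and of the 14 lost ones 2 had a peak in both. Those 2 were the Gm46961 promoter region and one between Ighg2b and Ighg1, 113320732 to 113321166. The same counts over all gained and lost regions of the genome were not made, so these are not read as a trait of the loci. The region between Ighg2b and Ighg1 had no H3K27ac in LPD and 421 and 317 bp in B cells, while H3K18ac covered 435 and 424 bp of it in LPD and 245 and 204 bp in B cells. In progenitors H3K27ac covered 226 bp of it in the null and 368 bp in wild type.

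CBP itself was mapped in wild-type B cells, and its list held 1000 peaks, of which 7 lay in the immunoglobulin loci, or 0.700%. Of these, 4 were at Igh, 2 at Igk and 1 at Igl. At Igh, 3 lay in Ighm, at 113419044 to 113419386, 113419457 to 113420024 and 113420489 to 113420814, and 1 in the intronic enhancer interval, at 113427327 to 113427702. At Igk, 1 lay over Igkj5, at 70723813 to 70724016, and 1 lay 533 bp beyond Igkc, at 70727288 to 70727608. The lambda peak, at 19052885 to 19053145, lay 8606 bp from Iglc1. They were 204 to 568 bp wide, against a median of 260 bp over the list.

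With at least 1 bp of overlap, 6 of the 7 had a B cell H3K27ac peak, against 89.5% of all CBP peaks, 3 had H3K18ac, against 78.7%, and 1 had H3K56ac, against 67.9%. The peak over Igkj5 was covered over its full 204 bp by each of the 12 acetylation lists of LPD and B cells. The peak beyond Igkc was covered over its full 321 bp by all 6 LPD lists and by the B cell lists of H3K27ac, and not by those of H3K18ac or H3K56ac. In the enhancer peak, H3K27ac covered 376 and 214 bp in LPD and the full 376 bp in both B cell lists. The 3 peaks in Ighm had less B cell acetylation. In LPD, H3K27ac covered 343 and 343 bp of the first, 474 and 170 bp of the second, and 326 and 0 bp of the third. In B cells, where CBP was mapped, it covered 0 and 196 bp of the first, 0 and 190 bp of the second, and none of the third. None of the 14 regions that lost H3K27ac held a CBP peak. The CBP list had 1000 peaks over the whole genome, and the share of all lost regions holding one was not counted. Whether loss of H3K27ac went with CBP binding was not tested.

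Genes that act on these loci were read from lists of 32 in all: 5 for rearrangement and mutation, 6 partners of the receptor and 21 transcription factors. A gene had a call when a gained or lost region overlapped its span widened by 1 kb. For each mark 25 of the 32 had a region. Of these, 7 had a gained H3K27ac region, against 17.2% of protein-coding genes with a region, and 19 had a lost one, against 18.7%. For H3K18ac, 17 had a gain (33% of all) and 5 a loss (6.76%), and for H3K56ac 17 had a gain (29.7%) and 3 a loss (6%). Long genes such as Ebf1 collect more regions, so these shares are not adjusted for gene length. The recombinase genes Rag1 and Rag2 and the surrogate light chain genes Vpreb1 and Igll1 had no peak in LPD or B cells.

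Of the transcription factors, Pax5, Tcf4, Pou2f1, Pou2f2, Ikzf1 and Foxo1 had a gain in all 3 marks, and Pax5 and Nfkb1 a loss in all 3. The share of all protein-coding genes called in all 3 marks was not counted. Lost H3K27ac regions also lay at Tcf4 (1), Pou2f1 (2), Ikzf1 (2) and Foxo1 (3), while Pou2f2 had no lost region. Pou2f2 encodes Oct2, the octamer-binding factor of B cells, and had 13.8 and 9.18 kb of H3K27ac in LPD, against 4.85 and 4.31 kb in B cells. Its H3K18ac was 7.06 and 4.32 kb in LPD, against none in B cells. Tcf4 encodes E2-2, an E protein that binds immunoglobulin enhancers, and had 39.9 and 21.0 kb of H3K27ac in LPD, against 13.3 and 12.6 kb in B cells. Ikzf1, the gene of Ikaros, had 50.1 and 33.7 kb of H3K27ac in LPD, against 26.7 and 24.8 kb in B cells. Foxo1, needed for Rag expression in B cell precursors, had 4.44 and 6.18 kb of H3K56ac in LPD, against 1.63 and 1.85 kb in B cells. Its H3K27ac lists overlapped, at 7.45 and 4.94 kb in LPD and 6.03 and 4.42 kb in B cells. Of the 21 factor genes, 17 had a lost H3K27ac region, against 18.7% of protein-coding genes with a region. Among them Ebf1 and Ets1, named after their values were seen, lay lower in H3K27ac. Ebf1 had 26.1 and 17.1 kb in LPD, against 49.3 and 47.4 kb in B cells, and Ets1 29.4 and 18.2 kb in LPD, against 56.3 and 58.1 kb in B cells. Both lay higher in H3K18ac, with 32.3 and 19.2 kb of Ebf1 in LPD, against 11.4 and 14.1 kb in B cells, and 25.1 and 17.4 kb of Ets1 in LPD, against 13.4 and 14.8 kb in B cells. H3K56ac was higher as well, at 14.6 and 14.9 kb of Ebf1 in LPD, against 8.93 and 8.39 kb in B cells. For Ets1 it covered 15.4 and 15.4 kb in LPD, against 10.7 and 8.98 kb in B cells. The whole H3K18ac and H3K56ac lists were also longer in LPD (log2 ratios 0.88 and 0.82), and those of H3K27ac shorter (-0.29). These gene lengths were not adjusted for that, so a gain of H3K18ac or H3K56ac at the 2 genes is not shown. Other factor genes lay lower in H3K56ac too. Irf8 had 3.549 and 1.311 kb of H3K27ac in LPD, against 11.544 and 11.296 kb in B cells. Its H3K56ac was 1.461 and 1.461 kb in LPD, against 3.31 and 3.165 kb in B cells, and its H3K18ac lists overlapped. Nfkb1 lay lower in all 3 marks, with 4.599 and 2.888 kb of H3K27ac in LPD, against 12.221 and 12.32 kb in B cells. Vpreb3, which encodes a partner of newly made light chains, had no H3K27ac in LPD, against 1.12 and 1.13 kb in B cells.

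Of the 80 genes of other kinds in the 3 windows, 7 had a peak within 1 kb in any list. The 5 most covered were Gm30211, Gm35545, Rpia, the pseudogene Gm10088 and Zfp386, a zinc finger gene beyond the last heavy chain V segment. Zfp386 had peaks in 13 of the 14 acetylation lists, with 0.512 and 0.466 kb of H3K27ac in LPD and 0.617 and 0.550 kb in B cells. Within the immunoglobulin loci, the LPD lists of H3K27ac shared 67.6% of their joint sequence, the B cell lists 85.6%, and an LPD with a B cell list 53.8 to 56.9%. For H3K56ac these shares were 76.9% within LPD, 51.2% within B cells and 17.8 to 20.8% between LPD and B cells, and for H3K18ac 68.0%, 63.4% and 23.8 to 33.6%.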

How the data were processed

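Peak lists of 15 of the 30 samples were used. The other 15 samples (RNA-seq and input) were not analysed here. The tools named in the submitters' processing notes are MACS2 2.0.10, Bowtie2 2.1.0, bedtools, Picard and STAR 2.4.0, an RNA-seq aligner, with mm10 as the build. Their settings are not given in the sources used here. Each deposited file holds peak positions only, 1 list per library, with no score or depth. Antibodies, per the labels' protocols, were ab4729 (H3K27ac), ab1191 (H3K18ac), ab76307 (H3K56ac) and sc-369 (CBP). Covered lengths, calls and tests were made from these positions in pandas 2.3.3 and NumPy 2.4.6 under Python 3.11.15. Figures were drawn with Matplotlib 3.10.9.

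Windows were split into parts from RefSeq gene spans (GRCm38.p6). The planned kappa 3′ flank ended at Gm30211, so the sequence beyond it has parts of its own. Lengths were compared as log2(kb + 0.1), with an exact two-sided permutation test over lists. Regions are merged unions over the genome, with 1 bp counted as overlap. Region calls were checked on gains and losses planted in B cell regions of chromosome 12, with no detection error. That check cannot show how missed peaks or unequal lists affect the calls. Covered lengths were checked against a base-by-base count of B cell H3K27ac list 1. Every constant gene, part, CBP peak and V segment with a peak was considered for naming, with the longest gained and lost regions per mark and the genes called in all 3 marks. Gm46961, Ighd1-1, the partner V segments, the Ighg2b-Ighg1 and Gm35545 regions, LOC108169192 and the genes Ebf1, Ets1, Irf8 and Vpreb3 were named after their values were seen. Members and lists were chosen with earlier results of these data known. Many V segments are near copies of each other, and reads that match several places may be missing from the lists. How such reads were treated is not given in the sources used here.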

Additional observations from a re-analysis of the deposited data

Results flagged for a closer look

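For 3 H3K27ac lengths the difference between Crebbp-null and wild type ran one way in progenitors and the other way in every LPD list against every B cell list. The difference between the contrasts was not tested, since progenitors had 1 list per genotype, and LPD and B cells differ in sorting and disease as well. The directions are those of covered length, and none of the 3 oppositions held as a share of each list's covered length, an alternative chosen after seeing the data. Over the whole heavy chain window, the log2 ratio was 0.63 for LPD against B cells and -0.30 for null against wild-type progenitors, 0.93 apart. As a share of the list, Igh was at 0.187 and 0.217% in LPD and 0.105 and 0.107% in B cells, and at 0.0718% in null and 0.0595% in wild-type progenitors. Along Gm30211, downstream of Igkc, LPD was lower than B cells while null progenitors had 0.842 kb against 0.646 kb in wild type, and the contrasts were -0.64 apart. Its share was 0.0602 and 0.0582% in LPD and 0.0593 and 0.0605% in B cells, which overlapped. From Rpia to the edge of the kappa window, LPD was higher than B cells while null progenitors had 0.832 kb against 1.07 kb in wild type, and the contrasts were 0.99 apart. Its share was 0.0132 and 0.0147% in LPD and 0.00659 and 0.00755% in B cells, and 0.0132% in null and 0.0114% in wild-type progenitors.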

How the results depend on the processing

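The direction of H3K18ac and H3K56ac in the 3 windows, and of H3K27ac at Igh, did not change under any alternative run. The light chain H3K27ac values did. At Igk (-0.003 as deposited) the log2 ratio was 0.11 with lists cut to equal length, 0.29 as a share of the list, 0.87 between the outermost immunoglobulin genes, and -0.38 to 0.37 with 1 list left out. At Igl (-0.20 as deposited) it was 0.18 at equal length, 0.088 as a share, 0.044 between the outermost genes and -0.53 to 0.12 with 1 list left out. In progenitors (-0.36) it was 0.071 at equal length, 0.21 as a share and -0.71 with peaks of at least 500 bp.

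Counts of regions moved more. Gained H3K27ac regions (14) were 9 with peaks of at least 500 bp and 15 to 40 with 1 list left out, and lost ones (14) were 0 at equal length, 3 at 500 bp, 5 with peaks within 1 kb merged and 14 to 23 with 1 list left out. Gained H3K18ac regions (25) were 8 at equal length, 8 merged and 27 to 68, and lost ones (1) were 8 at equal length, 0 at 500 bp and 1 to 2. Gained H3K56ac regions (36) were 8 at equal length, 19 at 500 bp, 9 merged and 39 to 56, and lost ones (0) were 5 at equal length, 1 at 500 bp and 0 to 2. Cutting to equal length kept the widest peaks of each longer list, so narrow peaks were dropped first, and the limit of 500 bp drops narrow peaks as well. Leaving a list out lowers the number of lists that a call needs. These counts therefore do not show what equal read depth would give. How much each setting's rule made of the changes was not tested.

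Replicate numbers did not pair the lists (correlations of same-numbered deviations 0.0228, -0.0206 and -0.0209). With the replicate block the Igh H3K27ac ratio was 0.63, with an exact sign-flip p of 0.5, the smallest that 2 pairs allow. The lists carry no depth, so a missing peak does not show missing acetylation.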
